A study of Mus musculus with 30 samples.

Results

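The mitochondrially encoded genes were taken as every gene that the deposited count table places on chromosome MT, which gave 37 of its 43629 genes: 13 mRNA genes, 2 rRNA genes and 22 tRNA genes. The rule used the chromosome alone. The question was how much RNA of the mitochondrial genome bone marrow-derived dendritic cells (BMDCs) held, whether it differed between wild-type (WT) and Cacnb3-/- cells or between the sets of libraries, and whether its 3 RNA classes moved together. Cacnb3 encodes CACNB3, the beta 3 regulatory subunit of voltage-gated calcium channels. BMDCs were grown from the bone marrow of adult WT mice (C57BL/6J) and Cacnb3-/- mice (C57BL/6N) in granulocyte-macrophage colony-stimulating factor for 6 days, pulsed with 500 µM extracellular ATP for 30 min, and harvested at once or after 24 h by the treatment labels. The study's own text places the early harvest some time after the pulse instead. Each genotype had 5 cultures, and each culture gave 3 polyA-selected libraries named ctrl, 0p5h and 24h, so 30 libraries were available. The names and the treatment field disagreed: libraries named ctrl carried the 30 min ATP entry and libraries named 0p5h carried the vehicle entry, while both sources gave 24h after ATP for the third set. The sets are therefore called by their library names, and which of ctrl and 0p5h was unstimulated cannot be told from these labels. By the study's methods strain background went with genotype throughout, so the knockout and the C57BL/6N background cannot be told apart. In bulk cultures, fewer cells of a type and less RNA per cell cannot be told apart either.

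Mitochondria keep a small circular genome of their own, which is transcribed from both strands into long precursors. The tRNAs lie between the other genes like punctuation, and their excision frees the mRNAs and rRNAs. The mRNAs encode core subunits of respiratory chain complexes I, III and IV and of the ATP synthase, the rRNAs build the mitochondrial ribosome that translates them, and most of the mRNAs receive short poly(A) tails, which lets a polyA selection retain them. Dendritic cells use this machinery for oxidative phosphorylation, in balance with glycolysis once they are activated. The nuclear genome carries old insertions of mitochondrial DNA, and a short read that fits both places has no single origin.

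The genes without counts were those with no position where a read both fits only once and touches 1 gene only. A stretch of chromosome 1 held a copy of MT bases 6394 to 9828 (3435 bases) on the minus strand at chr1:24651831-24655265 of GRCm39, with 1 substitution (T9461C, the mitochondrial base first, counted along MT) and 99.97% identity. The substitution lies within mt-Nd3, a complex I subunit gene, where it reads T3C when counted from the gene's first base. The first 60 bases of mt-Nd3 (MT:9459-9518, plus strand) and of its copy (chr1:24652141-24652200, minus strand) are shown because they hold this only difference. The capital marks it, and the sequences are from GENCODE M39 and the GRCm39 assembly.
mt-Nd3, first 60 bases: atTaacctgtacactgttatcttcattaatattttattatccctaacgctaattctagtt
copy of mt-Nd3, first 60 bases: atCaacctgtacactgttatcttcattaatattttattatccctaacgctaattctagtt

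Of the 16250 positions at which a 50-base read can start on MT, 5818 (35.8%) had an exact copy in the nuclear genome: 4510 on chromosome 1, 1201 on chromosome 2 and 266 on chromosome 12. Those on chromosome 1 went beyond the stretch described above. They included all 346 read positions of mt-Nd4l and 876 of the 1427 of mt-Nd4, 2 genes that lie past its end. A read position is called countable here when its 50 bases occur once in GRCm39 and touch 1 gene only, because the authors' counting, with no option named for multiple alignments or overlapping genes, leaves out reads that fail either condition by default. The count table's coordinates of all 37 genes were those of GENCODE M39, and the GENCODE M39 transcripts matched the GRCm39 sequence at these coordinates. A group of 12 genes had 0 countable positions, and all 12 had at most 1 read over the 30 libraries together (9 genes with 0 reads and 3 with 1). They were 5 mRNA genes (mt-Co2 and mt-Co3 of complex IV, mt-Atp6 and mt-Atp8 of the ATP synthase, and mt-Nd4l of complex I) and 7 tRNA genes (mt-Tw, mt-Ty, mt-Ts1, mt-Td, mt-Tk, mt-Tg and mt-Th). Of these, mt-Tw, mt-Tg and mt-Th had a nuclear copy at 27.6%, 59.8% and 69.0% of their read positions, and their other positions touched 2 genes. The 25 genes outside this group each had at least 68 reads. The near-zero counts of mt-Co2 or mt-Atp6 therefore give no level of these transcripts, and these 12 genes entered no comparison. The shortest gene among the 5 mRNAs is shown whole, from GENCODE M39, because every 50-base window of it also occurs on chromosome 1 (mt-Atp8, MT:7766-7969, plus strand, 204 bases, start codon first).
mt-Atp8: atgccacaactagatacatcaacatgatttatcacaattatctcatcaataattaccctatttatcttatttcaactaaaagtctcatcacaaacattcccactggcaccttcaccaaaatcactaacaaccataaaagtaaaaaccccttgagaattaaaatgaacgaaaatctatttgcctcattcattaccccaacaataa

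The same rule separated neighbours. The tRNA genes for cysteine (mt-Tc, MT:5192-5257) and tyrosine (mt-Ty, MT:5260-5326) lie side by side on the minus strand, and their sequences from GENCODE M39 are given because one was among the best counted tRNAs and the other had no countable position.
mt-Tc: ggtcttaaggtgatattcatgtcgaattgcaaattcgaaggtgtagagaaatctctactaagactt
mt-Ty: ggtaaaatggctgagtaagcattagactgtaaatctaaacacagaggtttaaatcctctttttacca
All 116 read positions of mt-Ty had a nuclear copy, against 46.1% for mt-Tc, which kept 45 countable positions. Among the long genes the loss was uneven. mt-Co1, the catalytic subunit of complex IV, had a copy at 54.1% of its read positions and kept 731 countable ones, and mt-Nd4 had a copy at 63.6% and kept 503. mt-Nd3 kept 3 countable positions and had 0 to 33 reads per library, so its values rest on few reads. mt-Nd1 and mt-Rnr1, the 12S rRNA gene, had no copied position, and mt-Cytb, the complex III gene, had a copy at 0.335%. The 7 genes of the count table annotated as pseudogenes within the chromosome 1 copy summed to 0.130 to 3.08 counts per 1000000 counts (CPM) per library.

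**Figure D1:**
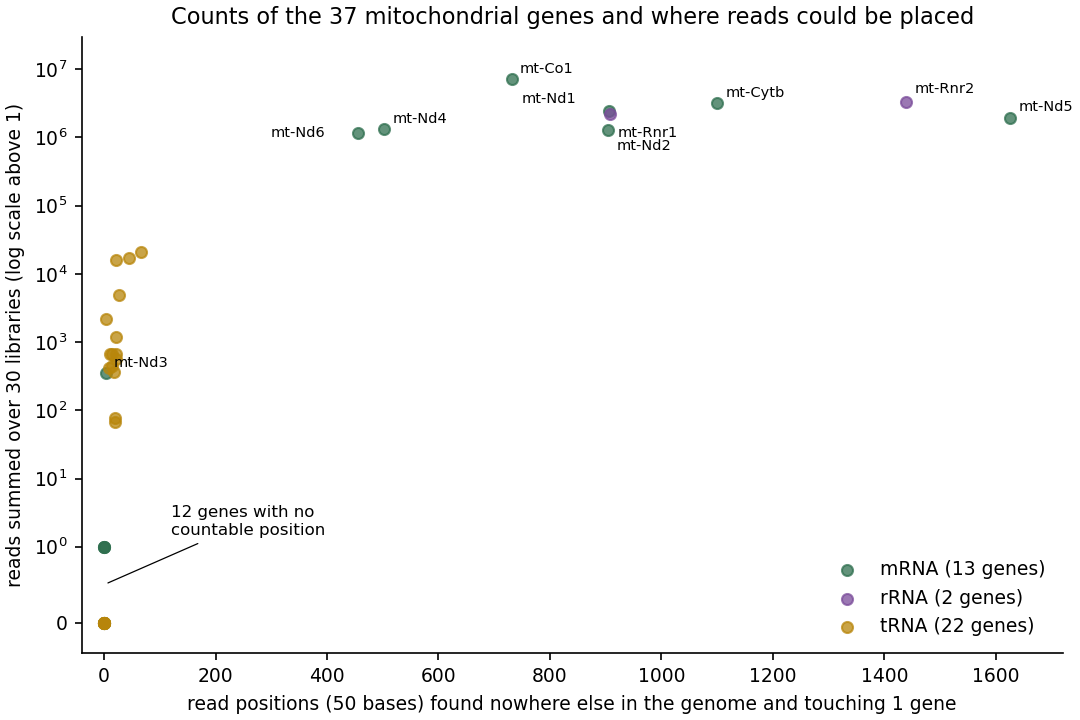
Reads of each of the 37 mitochondrial genes summed over 30 libraries (vertical axis, log scale above 1) against its countable read positions (horizontal axis, 50-base positions found once in GRCm39 and touching 1 gene), with points coloured by RNA class. The 12 genes without a countable position lie at 0 or 1 read, and the 25 others at 68 reads or more.

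The libraries held 8237393 to 32164225 counts (median 19556920), and no library pair was identical. The dendritic cell and mononuclear phagocyte markers summed to 11439 to 30773 CPM, with 8 of 8 detected. Macrophage markers summed to 264 to 995.5 CPM, granulocyte markers to 107 to 564, mast cell and basophil markers to 0.873 to 5.74, B cell markers to 0.154 to 3.13, T cell markers to 0.0384 to 1.08 and erythroid markers to 0 to 0.312 CPM. Cacnb3 itself was counted in both genotypes, at 1028 ± 196 CPM in Cacnb3-/- and 1260 ± 112 CPM in WT ctrl libraries (SD, n = 5 each), 964 ± 238 against 1233 ± 188 in 0p5h and 973 ± 277 against 1669 ± 366 in 24h. Its log2 fold changes were -0.27, -0.34 and -0.77, and none passed edgeR's quasi-likelihood test (Benjamini-Hochberg adjusted p = 0.383, 0.367 and 0.0518). Counts over all exons do not separate a deleted part from the rest, so this is no check of the genotype labels. Nnt, a nuclear gene of the mitochondrial inner membrane that is known to carry a deletion in C57BL/6J, stood at group means of 7.36 to 9.82 CPM in both genotypes. Its log2 fold changes of Cacnb3-/- against WT were 0.12, 0.05 and 0.01 in ctrl, 0p5h and 24h libraries (edgeR adjusted p = 0.724, 0.906 and 0.966), so the Nnt counts do not show the strain difference that the methods give. Here too the counts do not separate the deleted exons.

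Over all libraries 24313358 counts fell on MT genes: 76.8% on mRNA genes, 22.9% on rRNA genes and 0.273% on tRNA genes. The share of a library's counts on the 37 genes ranged from 0.706% to 16.5% with a median of 4.12%. Within the mRNA class the proportions were narrow beside that range. mt-Co1 took 40.4% ± 5.34 of the mRNA counts (SD over 30 libraries, 32.7% to 51.8%), mt-Cytb 17.1% ± 2.36, mt-Nd1 12.6% ± 1.42 and mt-Nd5 10.5% ± 1.04. mt-Nd4 took 6.98% ± 1.14, mt-Nd2 6.71% ± 0.875 and mt-Nd6, the one mRNA gene on the minus strand, 5.77% ± 1.63, with the largest SD relative to its mean among these 7 (1.61% to 9.60%). mt-Rnr2, the 16S rRNA gene, took 60.3% ± 2.45 of the rRNA counts. Among tRNA counts mt-Tp (proline) took 34.1% ± 8.71, mt-Tc 25.1% ± 6.68, mt-Ta (alanine) 21.6% ± 5.24 and mt-Tl1 (leucine) 8.56% ± 2.64. The tRNA counts come from polyA-selected RNA, and from what kind of tRNA transcript was not tested. Without strand in the counting, reads of a minus-strand gene such as mt-Nd6 and reads of the opposite strand at the same place cannot be told apart.

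Levels can be compared between genes only per length, and the countable length is the one that the reads could fill. Only genes with at least 10 countable positions were ranked, which left out mt-Nd3, mt-Co2, mt-Co3, mt-Atp6, mt-Atp8 and mt-Nd4l. Per 100 countable positions mt-Co1 was the highest of these ranked genes in 30 of 30 libraries, at 1134 ± 615 CPM in WT and 2748 ± 1046 CPM in Cacnb3-/- (mean ± SD over 5 culture means each). By gene length mt-Co1 was highest of the long genes in 28 libraries and mt-Rnr1 in 2. Per 100 countable positions a middle group followed in WT: mt-Cytb at 350 ± 265, mt-Nd1 at 289 ± 203, mt-Nd4 at 285 ± 201 and mt-Nd6 at 264 ± 201 CPM. These 4 neighbours differed by less than their spread over cultures. Below them lay mt-Rnr1 at 186 ± 77.5, mt-Rnr2 at 180 ± 89.2, mt-Nd2 at 152 ± 109 and mt-Nd5 at 142 ± 98.4 CPM, again closer to one another than their SD. In Cacnb3-/- cultures mt-Rnr1 (886 ± 557 CPM) and mt-Rnr2 (848 ± 524 CPM) stood level with mt-Nd6 (829 ± 424), mt-Cytb (822 ± 283), mt-Nd4 (820 ± 358) and mt-Nd1 (800 ± 317). mt-Nd2 (438 ± 183) and mt-Nd5 (331 ± 125.7) were again at the end, and mt-Nd5 was the lowest of the 9 long genes in 23 of 30 libraries. The best counted tRNA genes lay lower, with mt-Ta at 46.0 ± 28.1 CPM per 100 countable positions in WT and 278 ± 200 in Cacnb3-/-, mt-Tc at 27.4 ± 18.3 and 138 ± 72.9, and mt-Tp at 31.04 ± 17.97 and 99.1 ± 59.1.

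The genes moved as a block from culture to culture. With genotype means removed, the log2 CPM of the 7 well counted mRNA genes correlated pairwise over the 10 cultures at r = 0.956 to 0.996 (21 pairs, median 0.986). The 2 rRNA genes correlated at 0.991 with each other and at 0.787 to 0.909 with the mRNA genes. The tRNA genes correlated at 0.860 to 0.966 among themselves, 0.882 to 0.954 with the rRNA genes and 0.761 to 0.966 with the mRNA genes. These are descriptions without a test, and all points of a culture share its libraries, their depth and their base composition.

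The share of counts on mitochondrial genes was higher in Cacnb3-/- than in WT BMDCs in every set, and in each of the 3 RNA classes, with overlapping genotypes. In ctrl libraries the share was 4.83%, 5.23%, 8.98%, 10.4% and 2.61% in Cacnb3-/- cells of p974s843, p974s851, p974s852, p974s853 and p974s865, and 1.53%, 3.50%, 1.26%, 1.07% and 4.49% in WT cells of p974s846, p974s850, p974s855, p974s856 and p974s864. In 0p5h libraries, with the cultures in the same order, it was 10.5%, 4.78%, 6.75%, 5.13% and 2.16% in Cacnb3-/- and 1.98%, 3.10%, 1.15%, 1.13% and 4.02% in WT. In 24h libraries it was 16.5%, 6.00%, 10.5%, 13.6% and 3.21% in Cacnb3-/- and 2.55%, 4.21%, 1.82%, 0.706% and 5.61% in WT. The overlap lay in a few cultures: p974s865 was the lowest Cacnb3-/- culture in every set, and the WT cultures p974s850 and p974s864 lay above it in every set.

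The means were 6.42% ± 3.20 against 2.37% ± 1.53 in ctrl libraries (exact two-sided permutation test, n = 5 and 5, p = 0.0397), 5.86% ± 3.06 against 2.28% ± 1.27 in 0p5h (exact permutation p = 0.0317) and 9.96% ± 5.43 against 2.98% ± 1.94 in 24h (exact permutation p = 0.0317). With 1 value per culture, the mean of its 3 libraries, the shares were 7.41% ± 3.32 and 2.54% ± 1.57, a ratio of 2.92 (exact permutation p = 0.0317). The class shares at culture means were 5.36% ± 2.08 against 2.11% ± 1.37 for mRNA, 2.02% ± 1.26 against 0.428% ± 0.198 for rRNA and 0.0231% ± 0.0138 against 0.0054% ± 0.0033 for tRNA, which are ratios of 2.54, 4.73 and 4.30. All 16 tests of this family (4 measures in 3 sets and in culture means) kept a Benjamini-Hochberg adjusted p of 0.0423 to 0.0476, each from an exact permutation test whose smallest possible p is 0.00794. The 16 tests are not independent, because the total share sums the 3 classes and the culture means average 3 sets of the same cultures. Their calls did not hold without single cultures. Leaving out the WT culture p974s846, p974s855 or p974s856 raised the unadjusted exact permutation p of the total share to 0.0556, 0.0635 and 0.0635 at culture means, and to 0.0635 to 0.0873 within the sets. The call was also lost without p974s852 in ctrl and 0p5h, without p974s853 in ctrl and without p974s843 in 0p5h (exact permutation p = 0.0556 each), and in ctrl libraries when only mt-Nd1 and mt-Cytb, which have few or no nuclear copies, were counted (exact permutation p = 0.0556). Nothing in the labels says how the cultures of a genotype were kept apart before the harvest, so these p-values measure the spread between cultures as deposited.

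**Figure D2:**
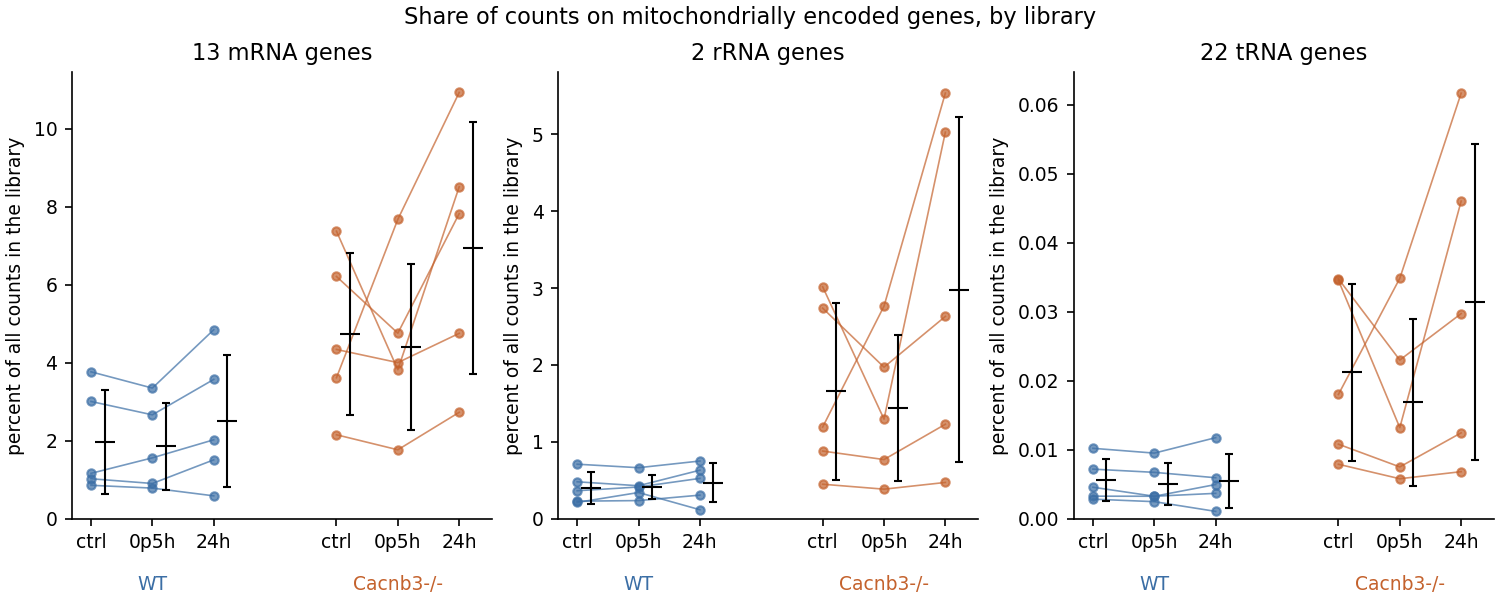
Percent of each library's counts on the 13 mRNA, 2 rRNA and 22 tRNA genes of MT (vertical axes, 1 panel per class), for the ctrl, 0p5h and 24h libraries of each genotype, with a line joining the 3 libraries of a culture and black bars for the mean ± SD of 5. Cacnb3-/- means lie above WT means in all 9 class and set pairs, and the genotypes overlap in each.

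The column names give a sequencing lane for each library, and the lanes held the genotypes in unequal numbers (1 to 3 libraries of each genotype per lane and set). Within lanes the Cacnb3-/- mean share was above the WT mean in 9 of 9 combinations of lane and set, by 1.09 to 2.06 percentage points in lane 1, 1.58 to 4.72 in lane 2 and 6.37 to 11.7 in lane 3. The direction was thus the same in each lane, with the 3 largest gaps in lane 3. The 9 combinations are not independent, because they repeat cultures over the sets. In each set p974s851 was the only Cacnb3-/- culture in lane 1, and p974s855 the only WT culture in lane 3. A lane effect was not tested here.

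In each set the median sum of dendritic cell and phagocyte markers was lower, and that of macrophage markers higher, in Cacnb3-/- than in WT. These marker levels were not tested. The 8 dendritic cell and phagocyte markers summed to 12527 to 25473 CPM in Cacnb3-/- and 21188 to 30602 CPM in WT ctrl libraries, 15305 to 29583 against 21713 to 30773 in 0p5h and 11439 to 21700 against 16355 to 29462 in 24h. The 6 macrophage markers summed to 533 to 920.3 CPM against 264 to 838 in ctrl, 417 to 995.5 against 318 to 832 in 0p5h and 467 to 903 against 346 to 801 in 24h, with none at 0. The granulocyte markers had medians of 359 CPM in Cacnb3-/- and 199 in WT ctrl libraries, and 303 against 199 in 0p5h. In 24h the order was reversed, at 343 against 360. The ranges of each list overlapped in each set. The macrophage list had medians of 762 CPM in Cacnb3-/- against 465 in WT in ctrl, 896 against 537 in 0p5h and 636 against 565 in 24h. The dendritic cell and phagocyte list had 18388 against 22734, 20872 against 25946 and 12521 against 24701. Within these lists, 2 genes are given that were chosen after their values were seen. The other members are not given, so these 2 genes do not stand for their lists. Mrc1, the macrophage mannose receptor, stood at 64.6 ± 31.3 CPM in Cacnb3-/- and 25.9 ± 37.2 in WT ctrl libraries, 54.7 ± 14.001 against 26.5 ± 32.7 in 0p5h and 83.4 ± 22.97 against 29.2 ± 30.3 in 24h (SD, n = 5 each). Ccr7, the chemokine receptor of migrating dendritic cells, stood at 2882 ± 232 against 4332 ± 825 CPM, 3509 ± 698 against 5029 ± 818 and 2927 ± 835 against 5141 ± 970.5 in the same order. The part of these markers in the genotype difference was not tested.

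Per gene, every tested member had a higher level in Cacnb3-/- cells, and none passed the main test. Calls needed an edgeR adjusted p under 0.05 (Benjamini-Hochberg over all genes tested) together with a 2-fold difference, after a filter on low counts. In ctrl libraries 22 of the 37 members passed the filter, and 0 were called, as were 0% of all 13022 genes tested. All 22 log2 fold changes were positive (53.6% of all genes), and 21 had an unadjusted p under 0.05 (16.6% of all genes, 7.95% with a higher level in Cacnb3-/-). The median log2 fold change was 1.42 for mRNA genes, 2.11 for rRNA genes and 1.99 for tRNA genes, against 0.03 for all genes. The adjusted p of members ranged from 0.243 to 0.319. In 0p5h libraries 0 of 21 tested members were called (0% of 12806 genes), 20 had an unadjusted p under 0.05 (16.4% of all genes, 8.36% with a higher level), all 21 were positive (53.1%), and the medians were 1.37, 1.86 and 1.90 with adjusted p from 0.251 to 0.342. In 24h libraries 0 of 22 tested members were called (0% of 12706 genes), 22 had an unadjusted p under 0.05 (38.4% of all genes, 20.1% with a higher level in Cacnb3-/-), all 22 were positive (50.9%), and the medians were 1.78, 2.85 and 2.67, which are 3.43-fold, 7.19-fold and 6.34-fold. Here the adjusted p was 0.0515 to 0.101, at its low end close to the threshold. Such values were not particular to the members: the nuclear genes Slirp (edgeR adjusted p = 0.0515) and Cacnb3 (0.0518) had them too.

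Other count models moved the mitochondrial genes across the threshold. DESeq2 (Wald test, Benjamini-Hochberg, the same filter and fold) called 11 of 22 members in ctrl (0.937% of all genes, 0.246% with a higher level), 7 of 21 in 0p5h (0.531%, 0.219% higher) and 21 of 22 in 24h libraries (4.24%, 2.7% higher), all higher in Cacnb3-/-. The 11 in ctrl were mt-Co1, mt-Nd3, mt-Rnr1, mt-Rnr2, mt-Ta, mt-Tc, mt-Ti, mt-Tl2, mt-Tn, mt-Tp and mt-Ts2. The 7 in 0p5h were mt-Rnr1, mt-Rnr2, mt-Ta, mt-Tc, mt-Tl1, mt-Tl2 and mt-Tq. In 24h libraries the lowest of the 21 were mt-Nd5 (1.44), mt-Cytb (1.45) and mt-Co1 (1.48), the highest were mt-Te (3.29), mt-Ta (3.25) and mt-Ti (3.07), and mt-Nd3 was given no adjusted p. edgeR with all 30 libraries in 1 model called 22 of 23 in 24h libraries (4.47%), and edgeR without the filter on low counts called 19 of 25 (1.46%). With the 3 libraries of each culture summed, edgeR called 0 of 23 members (0% of 14833 genes), all 23 with an unadjusted p under 0.05 (23.3% of all genes, 11.6% with a higher level) and positive (52.6%), medians of 1.46, 2.16 and 2.15 and adjusted p of 0.127 to 0.170, while DESeq2 called 21 of 23 (1.48%, 0.775% higher), from mt-Nd5 (1.22), mt-Co1 (1.27) and mt-Nd1 (1.43) at the low end to mt-Tl2 (2.43), mt-Tn (2.46) and mt-Ta (2.49) at the high end. Leaving out 1 culture kept the edgeR count at 0 in 9 of 10 omissions in ctrl and 10 of 10 in 0p5h libraries. It did so in 8 of 10 in 24h and 8 of 10 in summed libraries, and the other omissions gained calls. With p974s864 (WT) left out, edgeR called 6 members in ctrl (1.88% of all genes), 20 in 24h (5.74%) and 20 in summed libraries (2.54%). With p974s865 (Cacnb3-/-) left out it called 23 in 24h (8.83%) and 16 in summed libraries (1.27%).

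The rRNA genes had larger log2 fold changes than the mRNA genes at the median in each set. Values are CPM after trimmed mean of M-values (TMM) scaling. In 24h libraries mt-Rnr2 stood at 35038, 7061, 16953, 34307 and 2673 CPM in the Cacnb3-/- cultures and at 3018, 3693, 1666, 751 and 4411 CPM in the WT cultures, in the order used for the shares. In ctrl libraries the values were 6767, 5103, 17065, 19242 and 2561 in Cacnb3-/- and 2154, 2934, 1254, 1236 and 4086 in WT. The genotypes overlapped through p974s865, which lay below 2 of the WT cultures in ctrl and below 3 in 24h libraries. The log2 fold change was 2.15 ± 0.56 in ctrl (SE, edgeR adjusted p = 0.243), 1.82 ± 0.47 in 0p5h (adjusted p = 0.251) and 2.85 ± 0.68 in 24h (adjusted p = 0.0515). mt-Rnr1 gave 2.07 ± 0.53, 1.89 ± 0.47 and 2.85 ± 0.68 with edgeR adjusted p of 0.243, 0.251 and 0.0515, and with libraries summed both rRNA genes gave 2.16, with SE of 0.49 for mt-Rnr1 and 0.51 for mt-Rnr2 (adjusted p = 0.127).

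mt-Co1, which encodes the catalytic core of cytochrome c oxidase, showed a smaller gap. Its 24h values were 40493, 16035, 28026, 31106 and 10312 CPM in the Cacnb3-/- cultures and 8180, 12307, 6223, 2586 and 16238 CPM in the WT cultures. The cultures p974s843, p974s852 and p974s853 lay above all WT cultures and p974s865 lay below 2 of them. The log2 fold change was 1.27 ± 0.41 in ctrl (edgeR adjusted p = 0.247), 1.31 ± 0.41 in 0p5h (0.251), 1.49 ± 0.48 in 24h (0.0569) and 1.28 ± 0.39 with libraries summed (0.129). Of the mRNA genes, mt-Nd5, a proton-pumping subunit of complex I, had the lowest log2 fold change in ctrl (1.24 ± 0.48, edgeR adjusted p = 0.264) and in 24h libraries (1.44 ± 0.50, 0.0665), and mt-Cytb in 0p5h (1.21 ± 0.50, 0.281) and in summed libraries (1.22 ± 0.49, 0.170). The highest were mt-Nd3 in ctrl (1.83 ± 0.47, edgeR adjusted p = 0.243) and in summed libraries (1.82 ± 0.45, 0.127), and mt-Nd6 in 0p5h (1.52 ± 0.55, 0.255) and 24h (2.11 ± 0.74, 0.0679).

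mt-Nd6, a membrane subunit of complex I, is set apart by its strand. In 24h libraries it stood at 11495, 3375, 6086, 8462 and 1051 CPM in the Cacnb3-/- cultures and at 1514, 2095, 760, 96.2 and 2699 CPM in the WT cultures. The WT culture p974s856 lay far below the other WT cultures, and in the 0p5h and ctrl libraries of the same culture the gene stood at 411 and 463 CPM. The 24h library of p974s856 had 12988438 counts, the fewest of the WT libraries. The log2 fold change of mt-Nd6 was 1.44 ± 0.62 in ctrl (edgeR adjusted p = 0.283) and 1.58 ± 0.55 with libraries summed (0.144). mt-Ta, the alanine tRNA gene on the minus strand, had the highest log2 fold change of the 22 members in 24h libraries, 3.24 ± 0.77 (edgeR adjusted p = 0.0515), from 212, 16.5, 53.95, 134 and 13.9 CPM in Cacnb3-/- and 8.69, 7.85, 6.51, 2.26 and 20.2 CPM in WT. The WT culture p974s864 lay above 2 of the Cacnb3-/- cultures there, and the other WT cultures lay below all of them.

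**Figure D3:**
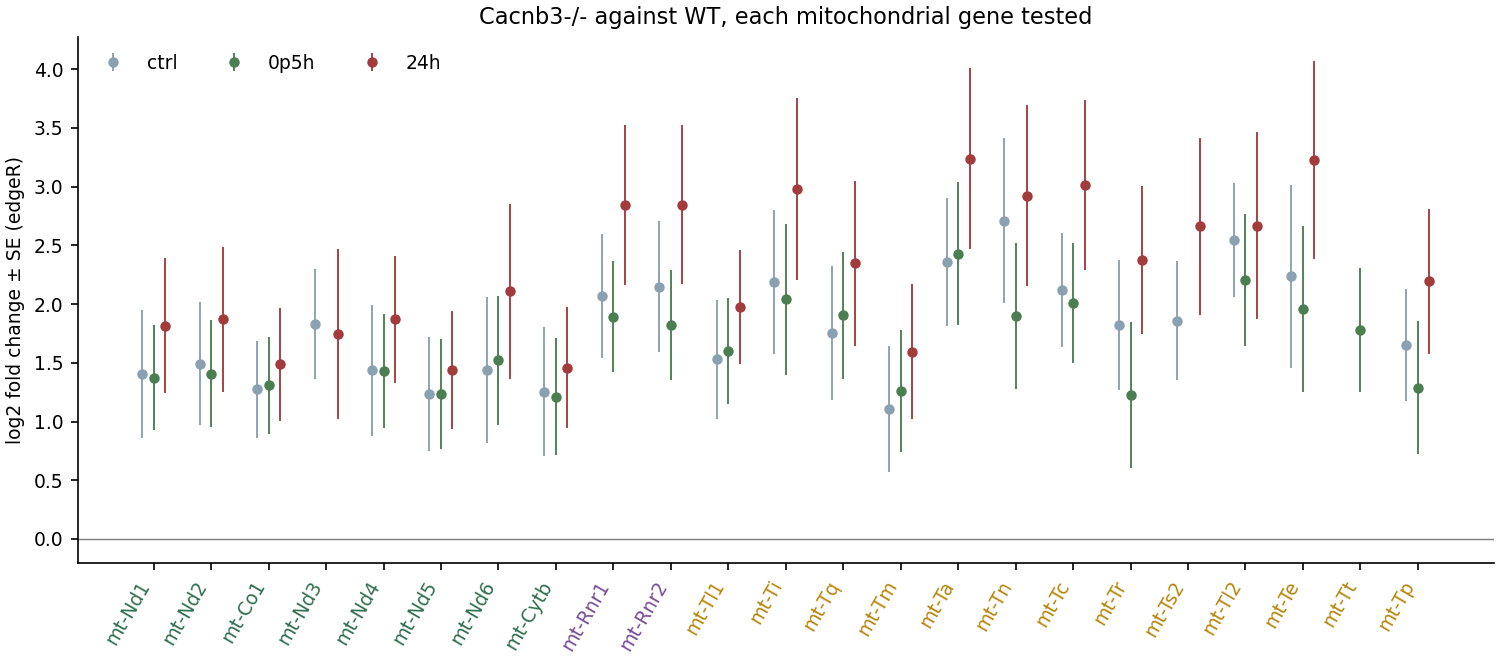
Log2 fold change of Cacnb3-/- against WT (vertical axis, edgeR estimate ± SE, 5 against 5 libraries) for each mitochondrial gene that passed the filter on low counts, in ctrl, 0p5h and 24h libraries, with gene names coloured by class (green mRNA, purple rRNA, ochre tRNA). All points lie above 0, and the 24h medians are 1.78 for mRNA, 2.85 for rRNA and 2.67 for tRNA genes.

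The gap between genotypes also went with the base composition of the libraries. The mRNA genes of MT have a GC content of 31.9% to 41.1% (mean 36.8%), against a median of 47.4% for nuclear genes. The GC slope of a library, its log2 deviation per 10 percentage points of GC over nuclear genes, had culture means of -0.436 to 0.0851 in Cacnb3-/- and 0.0379 to 0.312 in WT. The slope also moved between sets, with cultures in the order used for the shares. In 24h it was -0.470, -0.373, -0.533, -0.445 and 0.0492 in Cacnb3-/-. In 0p5h it was -0.0144, 0.0622, -0.354, 0.213 and 0.0825 in Cacnb3-/-. WT 24h libraries had 0.164, -0.00109, 0.101, 0.534 and 0.0179. After removal of the trend with GC, edgeR called 0 members in 24h libraries (0% of all genes) with medians of 1.12, 2.13 and 1.94 for mRNA, rRNA and tRNA genes and adjusted p of 0.131 to 0.289. With lane as a covariate it called 0 (0% of all genes), 11 of 22 members had an unadjusted p under 0.05 (29.9% of all genes), and the medians were 1.30, 1.60 and 1.77.

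Over the 10 cultures the log2 share of mitochondrial counts was related to 3 other measures, tested as 1 family. With the GC slope, Pearson's r was -0.810 (permutation p = 0.00222, adjusted 0.00481) and Spearman's rho was -0.818 (adjusted permutation p = 0.00907). With log2 total counts, r was -0.785 (permutation p = 0.00737, adjusted 0.00737) and rho was -0.782 (adjusted permutation p = 0.0108). With the mean log2 CPM of 75 nuclear genes of the respiratory chain and ATP synthase, r was 0.814 (permutation p = 0.00321, adjusted 0.00481) and rho was 0.903 (adjusted permutation p = 0.00252). Without the 2 cultures farthest from the median of each measure, r was -0.820, -0.705 and 0.817. The genotypes differ in these measures as well, so the values within a genotype are given as descriptions over 5 cultures each: r = -0.723 in WT and -0.639 in Cacnb3-/- for the GC slope, -0.264 and -0.916 for total counts, and 0.629 and 0.752 for the nuclear respiratory genes. The sign was the same in both genotypes for all 3 measures. The part of depth and base composition in the genotype difference was not tested beyond the GC-corrected values above.

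**Figure D4:**
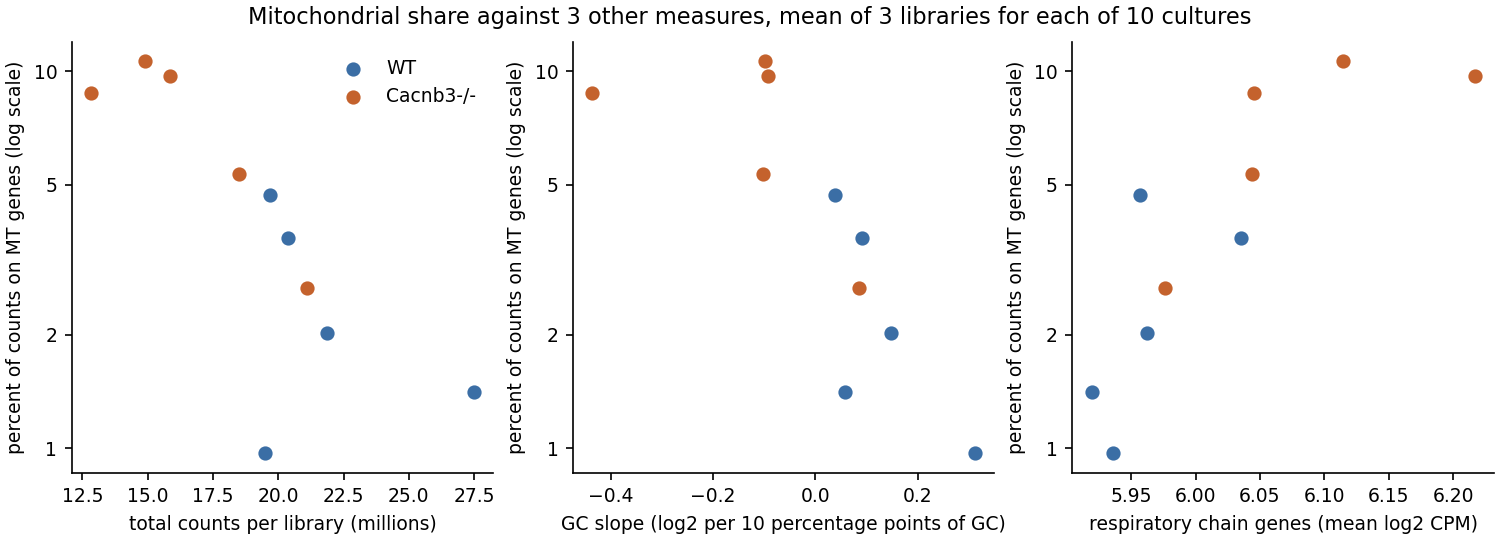
Percent of counts on mitochondrial genes (vertical axes, log scale, mean of 3 libraries) against total counts per library, the GC slope in log2 per 10 percentage points, and the mean log2 CPM of 75 nuclear respiratory chain genes, for 5 WT and 5 Cacnb3-/- cultures. The share falls with total counts (r = -0.785) and with the GC slope (r = -0.810) and rises with the nuclear respiratory genes (r = 0.814), and the Cacnb3-/- culture p974s865 lies among the WT cultures.

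Nuclear genes that serve the same organelle had smaller median differences. Of 75 nuclear respiratory chain and ATP synthase genes, all tested, edgeR called 0 between genotypes in any set. In ctrl libraries 16 had an unadjusted p under 0.05 with a higher level and 2 with a lower level in Cacnb3-/- (median log2 fold change 0.17), in 0p5h 28 and 1 (median 0.23) and in 24h 19 and 12 (median 0.02), where 16.6%, 16.4% and 38.4% of all genes had such a p in either direction. DESeq2 called 2 of the 75 in 24h libraries (4.24% of all genes), Ndufa5 (1.13, adjusted p = 0.00632) and Ndufb4 (1.30, adjusted p = 0.0143), both accessory subunits of complex I. Of 42 nuclear genes for mitochondrial RNA synthesis, processing and decay, edgeR called 0 of 41, 0 of 40 and 0 of 41 tested, with medians of 0.14, 0.20 and 0.21 in ctrl, 0p5h and 24h libraries. In 24h libraries 14 of 41 had an unadjusted p under 0.05 with a higher level and 7 with a lower level (38.4% of all genes in either direction). Among them were Slirp, which stabilizes mitochondrial mRNAs (0.94 ± 0.24, edgeR adjusted p = 0.0515), Mtpap, the mitochondrial poly(A) polymerase (0.71 ± 0.22, 0.0538), and Polrmt, the mitochondrial RNA polymerase (-0.84 ± 0.27, 0.0575), which were chosen after their values were seen. Of these 41 genes DESeq2 called 2 (4.24% of all genes), the termination factor family genes Mterf3 (1.22, adjusted p = 0.00509) and Mterf1a (1.15, adjusted p = 0.0169).

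Between sets the median differences of the mitochondrial genes were smaller than between genotypes, and no comparison passed the main test. All 24 share tests between sets (4 measures, 3 set pairs, 2 genotypes) had a Benjamini-Hochberg adjusted p of 0.936 to 0.960 by exact permutation. These permutation tests took the libraries as unpaired. From 0p5h to 24h the share was higher in 5 of 5 Cacnb3-/- cultures, by a mean of 4.10 percentage points, and in 4 of 5 WT cultures, by 0.705. From ctrl to 24h it was higher in 5 of 5 Cacnb3-/- cultures by 3.54 and in 4 of 5 WT cultures by 0.611. An exact paired test over 5 cultures cannot go below p = 0.0625, which is the value both Cacnb3-/- comparisons had. Both share their 24h libraries and are not independent. Between ctrl and 0p5h the share was lower in 0p5h in 4 of 5 Cacnb3-/- cultures (mean difference -0.556) and in 3 of 5 WT cultures (-0.0941). The culture p974s843 went the other way by a wide margin, from 4.83% in ctrl to 10.5% in 0p5h. The largest fall was of similar size, in p974s853, from 10.4% in ctrl to 5.13% in 0p5h. The Cacnb3-/- mean thus holds changes of 5.65 and -5.29 percentage points that nearly cancel.

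The test of the difference in change between genotypes did not hold after correction. From 0p5h to 24h the share changed by 4.10 ± 3.18 percentage points in Cacnb3-/- and by 0.705 ± 0.747 in WT (exact permutation over 10 cultures, p = 0.0397, adjusted 0.159 over 12 tests). For rRNA genes the changes were 1.54 ± 1.61 and 0.0496 ± 0.161 (exact permutation p = 0.0238, adjusted 0.143). From ctrl to 24h the difference in change was 2.93 percentage points (exact permutation p = 0.0952, adjusted 0.229) and from ctrl to 0p5h -0.462 (exact permutation p = 0.754, adjusted 0.823). Per gene, edgeR called 0 of 23 members in each of the 3 interactions (0% of all genes in each), with 0 at an unadjusted p under 0.05 (5.88% of all genes from 0p5h to 24h, 4.86% from ctrl to 24h and 0.223% from ctrl to 0p5h), and DESeq2 also called 0. For 0p5h to 24h the median log2 interaction was 0.35 for mRNA, 0.996 for rRNA and 0.91 for tRNA genes, with mt-Rnr2 at 1.03 ± 0.85 (edgeR adjusted p = 0.720), mt-Rnr1 at 0.96 ± 0.85 (0.732), mt-Nd6 at 0.60 ± 0.98 (0.859) and mt-Co1 at 0.19 ± 0.66 (0.945).

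Per gene, edgeR without a term for culture called 0 members in all 6 set comparisons. In Cacnb3-/- cells 0 of 23 tested members were called from 0p5h to 24h (0.66% of all genes), 0 of 23 from ctrl to 24h (0%) and 0 of 23 from ctrl to 0p5h (0.29%). In WT cells the counts were 0 of 17 (0.639%), 0 of 18 (0.0152%) and 0 of 17 (0.176%) in the same order. DESeq2 without the term also called 0 in all 6. At an unadjusted p under 0.05 edgeR had 1 member from 0p5h to 24h in Cacnb3-/- (17.5% of all genes) and 0 in the others (10.8% and 3.99% of all genes in Cacnb3-/-, 11.2%, 8.39% and 4.54% in WT, in the same order). All 23 log2 fold changes from 0p5h to 24h were positive in Cacnb3-/- (50% of all genes), with medians of 0.84 for mRNA, 1.13 for rRNA and 0.99 for tRNA genes, while the WT medians were 0.42, 0.12 and 0.11. mt-Nd6 had the highest mRNA value in Cacnb3-/- (1.11 ± 0.58, edgeR adjusted p = 0.327), mt-Nd3 the lowest (0.41 ± 0.59, 0.706), and mt-Co1 stood at 0.45 ± 0.43 (0.564). mt-Rnr1 stood at 1.14 ± 0.69 (0.384) and mt-Rnr2 at 1.12 ± 0.67 (0.380). In WT mt-Nd4 was highest (0.55 ± 0.53, 0.772), mt-Co1 lowest (0.26 ± 0.46, 0.889), and mt-Rnr2 stood at 0.08 ± 0.42 (0.969).

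From ctrl to 24h the Cacnb3-/- medians were 0.75, 0.99 and 0.65 and the WT medians 0.40, 0.25 and 0.11 for mRNA, rRNA and tRNA genes. In Cacnb3-/- the lowest edgeR adjusted p of the 23 members was 0.444, with mt-Nd6 at 1.08 ± 0.59 and mt-Co1 at 0.47 ± 0.41. From ctrl to 0p5h no mRNA gene was further from 0 than -0.13 ± 0.43 (mt-Nd2, Cacnb3-/-), and mt-Rnr2 stood at -0.19 ± 0.60 in Cacnb3-/- and 0.15 ± 0.37 in WT.

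The culture numbers tie the libraries of a culture together, and with the number as a replicate block the change from 0p5h to 24h in Cacnb3-/- cells gained calls. edgeR then called 5 of 23 members (2.88% of all genes, 1.31% with a higher level), all tRNA genes and all with a positive log2 fold change: mt-Te (glutamate, 1.6003 ± 0.28, adjusted p = 0.00277), mt-Tp (proline, 1.11 ± 0.23, 0.00641), mt-Ti (isoleucine, 1.003 ± 0.29, 0.0253), mt-Tn (asparagine, 1.02 ± 0.31, 0.0326) and mt-Tt (threonine, 1.12 ± 0.39, 0.04998). mt-Te had 4 countable positions and stood at 8.88, 1.37, 8.93, 4.20 and 1.73 CPM in 0p5h and 38.97, 3.71, 17.1, 25.8 and 1.86 CPM in 24h libraries of p974s843, p974s851, p974s852, p974s853 and p974s865. mt-Te was higher at 24h in 5 of 5 cultures, narrowly so in p974s865. mt-Tp and mt-Tn were also higher in each culture. mt-Ti was lower at 24h in p974s865 (0.594 to 0.371 CPM, 11 and 9 reads). mt-Tt was lower in p974s851 (0.752 to 0.401 CPM, 17 and 8 reads) and in p974s865 (0.486 to 0.454 CPM, 9 and 11 reads). Without the 2-fold minimum 17 of 23 members passed in that model (28.6% of all genes, 14.2% with a higher level), among them mt-Nd4 (0.90 ± 0.14, edgeR adjusted p = 0.00165), mt-Nd6 (0.96 ± 0.16, 0.00198), mt-Rnr1 (0.90 ± 0.22, 0.0117), mt-Rnr2 (0.86 ± 0.23, 0.0171) and mt-Co1 (0.45 ± 0.13, 0.0274). With the GC trend removed in the same model 1 of 23 was called (2.22%), mt-Te at 1.13 ± 0.21 (edgeR adjusted p = 0.00394), and the median over members was 0.39. DESeq2 with the block called mt-Te and mt-Tp (2.64%). A block does not account for library differences between the sets. Total counts from 0p5h to 24h went from 16791401 to 8237393 in p974s843 and from 22826581 to 19462976 in p974s851. They went from 13807704 to 11986891 in p974s852, from 19986081 to 11388082 in p974s853 and from 18729574 to 22535554 in p974s865. The 0p5h library of p974s852 was in lane 2 and its 24h library in lane 3. The part of depth and lane was not tested here. In WT the block gave 0 calls (1.78%), and 2 of 17 members passed without the fold minimum (11.3%, 4.52% with a higher level), mt-Nd4 (0.54 ± 0.12, edgeR adjusted p = 0.0176) and mt-Cytb (0.53 ± 0.13, 0.0335).

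**Figure D5:**
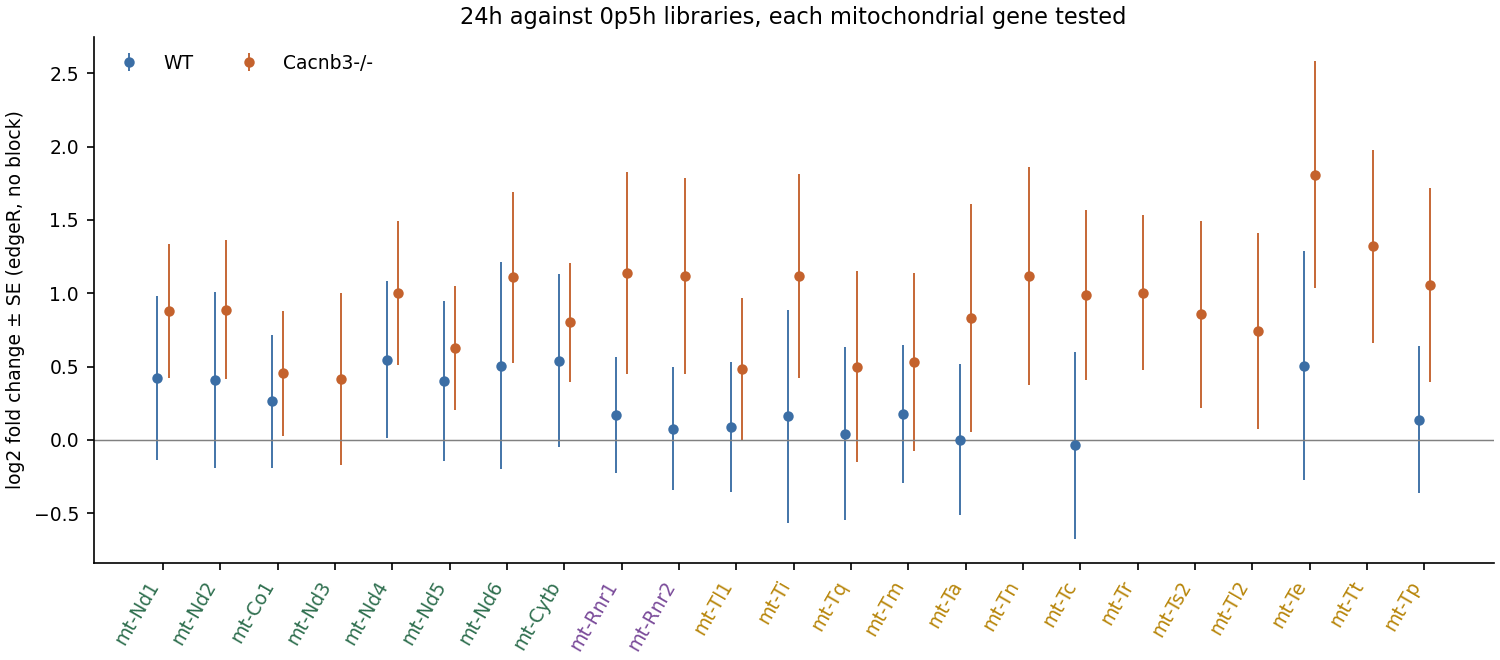
Log2 fold change of 24h against 0p5h libraries (vertical axis, edgeR estimate ± SE without the block, 5 against 5 libraries) for each mitochondrial gene tested, in WT and Cacnb3-/-, with gene names coloured by class (green mRNA, purple rRNA, ochre tRNA). All 23 Cacnb3-/- points lie above 0, and the WT points lie nearer to it, with medians of 0.42 for mRNA, 0.12 for rRNA and 0.11 for tRNA genes.

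With the same block in Cacnb3-/- cells, 19 of the 75 nuclear respiratory chain genes passed an edgeR adjusted p of 0.05 from 0p5h to 24h (28.6% of all genes), 0 of them with a 2-fold change (2.88%), and their median log2 fold change over all 75 was -0.12. Of the mitochondrial RNA genes 16 of 41 passed (28.6%), and 2 were called (2.88%): Mterf1a (1.20 ± 0.24, adjusted p = 0.00553), a factor that binds the end of the rRNA unit, and Ppargc1b (-1.08 ± 0.26, adjusted p = 0.0118), a nuclear coactivator of mitochondrial genes.

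Ratios within the mitochondrial counts, which do not depend on depth or on nuclear genes, were taken as log2 ratios of 7 mRNA, 2 rRNA and 4 tRNA genes with enough counts. None passed its family's correction. The rRNA to mRNA ratio in 24h libraries was 0.46 ± 0.64 in Cacnb3-/- and -0.20 ± 0.34 in WT, a difference of 0.66 (exact permutation p = 0.0873, adjusted 0.392 over 12 tests). The tRNA to mRNA ratio was -7.43 ± 0.44 and -8.08 ± 0.25, a difference of 0.65 (exact permutation p = 0.0317, adjusted 0.381). In WT cells the tRNA to mRNA ratio was lower in 24h than in ctrl libraries in 5 of 5 cultures (-8.08 ± 0.25 against -7.47 ± 0.37, difference -0.61, exact permutation p = 0.0159, adjusted 0.214 over 18 tests). It was also lower than in 0p5h libraries in 5 of 5 cultures, by -0.42 (exact permutation p = 0.0238, adjusted 0.214), and both comparisons share the 24h libraries. In Cacnb3-/- cells it was likewise lower than in ctrl libraries in 5 of 5 cultures, by -0.29 in 24h (exact permutation p = 0.333, adjusted 0.889) and by -0.25 in 0p5h (exact permutation p = 0.444, adjusted 0.889), and between 0p5h and 24h the difference was -0.03 (exact permutation p = 0.897, adjusted 0.950). These permutation tests between sets took the libraries as unpaired. In WT an exact paired test over 5 cultures gave an unadjusted p = 0.0625, its lowest possible value, for both comparisons. In Cacnb3-/- the exact paired test gave the same p = 0.0625 for both comparisons with ctrl. Between 0p5h and 24h in Cacnb3-/- the exact paired test gave p = 0.6875. The change of the tRNA to mRNA ratio from ctrl to 24h differed between genotypes by 0.33 (exact permutation p = 0.0714, adjusted 0.321). The ratio of mt-Nd6 to the other mRNA genes differed between genotypes by 0.12 in ctrl, 0.18 in 0p5h and 0.57 in 24h libraries, with exact permutation p of 0.516, 0.278 and 0.238.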

How the data were processed

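RNA of 30 libraries (5 cultures of each genotype in 3 sets) was polyA-selected and sequenced by the authors. The deposited file holds raw counts per gene: read 1 alignments by STAR 2.4, counted by the authors over exons of Ensembl release 79 (a GRCm38 annotation) with featureCounts 1.5.1 and no strand option, per the labels and the file headers. The labels name mm10 and the methods GRCm39. The table's MT gene coordinates are those of the GENCODE M39 annotation used here. Read length is given as 50 bases in the methods. Total counts were 8237393 to 32164225 per library, which limits low-count genes such as mt-Nd3 most.

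Genes passing filterByExpr were scaled by TMM and tested with edgeR 4.0.16 (quasi-likelihood, R 4.3.3) over all genes, with Benjamini-Hochberg adjustment, and called at adjusted p under 0.05 and at least 2-fold. DESeq2 1.42.0 was an alternative. Both were tested on simulated data. Shares, and log2 ratios with a pseudocount of 0.5 for genes averaging 100 counts or more, were compared by exact two-sided permutation tests, with Benjamini-Hochberg adjustment over each family. Between sets these tests took the libraries as unpaired, and an exact paired test over cultures was run beside them without adjustment. Relations used 100000 resamples. The members, lists and tests were chosen with earlier results of these data known. Named were mt-Nd6, mt-Rnr1, mt-Rnr2, mt-Co1, the lowest and highest mRNA gene of a comparison, and called members (all where 15 or fewer, otherwise the 3 lowest and 3 highest). Culture numbers come from the sample titles, which do not say that a number marks 1 animal. Same-numbered libraries deviated together (r above 0.1 over 13755 genes) in 29 of 30 pairs, the exception being ctrl and 24h of p974s843 (0.0746). The block was fitted for every set pair, and the numbers met the criterion for pairing in all but ctrl and 24h of Cacnb3-/-.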

Additional observations from a re-analysis of the deposited data

Results flagged for a closer look

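Of 120 groups of 5 libraries or cultures screened (shares and ratios by genotype and set, and their changes), 2 held a value far from the other 4 by Dixon's criterion, where chance gives about 1 in 20 groups. In WT 24h libraries the log2 ratio of tRNA to mRNA counts was -8.525 in p974s850, against -8.01 for the nearest culture. In the same group the log2 ratio of mt-Nd6 to the other mRNA genes was -2.93 in p974s856, against -1.31 for the nearest. That library also had the lowest share of mitochondrial counts of all 30 (0.706%). Its GC slope was the highest of all 30 (0.534), and its total of 12988438 counts was the lowest of the WT libraries.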

How the results depend on the processing

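With other settings no called result changed direction. Of 238 alternatives for the number of members called 222 stayed on the same side, as did 119 of 148 for the shares and 321 of 339 for the log2 ratios. Single-gene fold changes turned sign in 72 of 1162 alternatives, none of them with a call. Members called between genotypes were 11 (ctrl), 7 (0p5h), 21 (24h) and 21 (libraries summed) with DESeq2, and in 24h libraries 19 without the filter on low counts and 22 with all 30 libraries in 1 model, against 0 in each comparison with edgeR. With the replicate block from 0p5h to 24h, Cacnb3-/- had 5 called members, 17 without the fold minimum, 1 with the GC trend removed and 2 in DESeq2, and WT had 2 without the fold minimum. The block changed no other count of called members. From ctrl to 24h in Cacnb3-/- the numbers did not meet the criterion for pairing, and the block gave 0 called members there, with or without the fold minimum. The share difference between genotypes in ctrl libraries was 0.817 percentage points on mt-Nd1 and mt-Cytb alone (exact permutation p = 0.0556). The genotype difference in the change of the share from 0p5h to 24h was 0.52 on a log2 scale over nuclear counts (exact permutation p = 0.127), 2.09 points without the rRNA genes (p = 0.0556), 0.676 on mt-Nd1 and mt-Cytb (p = 0.0714), and 3.40 without the pairing, that is, with no replicate block (p = 0.393), each by permutation. The WT tRNA to mRNA ratio from 0p5h to 24h was -0.40 from summed counts (exact permutation p = 0.0714). The mean level of mt-Co1 relative to mt-Nd1 was 3.56 by countable positions and 1.78 by gene length. Several of these settings (lane, DESeq2 with the block, mt-Nd1 and mt-Cytb alone, countable positions, no fold minimum) were chosen after seeing the data. The cause of each change was not tested.

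Leaving out 1 culture at a time gave 0 to 6 called members between genotypes in ctrl, 0 to 23 in 24h and 0 to 20 in summed libraries, and 0 in all other comparisons. The share difference between genotypes ranged from 3.04 to 4.997 points in ctrl, 2.43 to 4.51 in 0p5h, 5.34 to 8.67 in 24h and 4.07 to 6.06 in culture means, with unadjusted exact permutation p up to 0.0873. The difference in change ranged from -2.01 to 0.723 (ctrl to 0p5h), 0.895 to 3.67 (ctrl to 24h) and 2.31 to 4.16 (0p5h to 24h). The rRNA to mRNA ratio ranged from 0.48 to 0.87 between genotypes in 24h and from -0.31 to -0.025 for the difference in change from ctrl to 0p5h. The tRNA to mRNA ratio ranged between genotypes from 0.15 to 0.48 in 0p5h, 0.53 to 0.79 in 24h and 0.29 to 0.59 in culture means. In WT it ranged from -0.70 to -0.53 (ctrl to 24h) and -0.53 to -0.36 (0p5h to 24h), and for the difference in change from -0.25 to 0.0085 (ctrl to 0p5h) and 0.25 to 0.42 (ctrl to 24h). The mt-Nd6 ratio ranged between genotypes from 0.093 to 0.29 in 0p5h and 0.17 to 0.41 in culture means.

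The limits are the 12 genes without a countable position, the uncertain names of the ctrl and 0p5h sets, strain background that goes with genotype, and 5 cultures per genotype, with which the smallest exact permutation p is 0.00794. Countable positions were derived for exact 50-base matches on GRCm39, and alignments with mismatches were not modelled.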
